A study of Mus musculus with 2 samples.

Results

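The claudins and tight junction genes described here are Cldn1, Cldn3, Cldn4, Cldn6, Cldn7, Ocln, Tjp1, F11r and Epcam. They were taken by name, through their NCBI gene identifiers, and all 9 were found among the 36528 identifiers of the count tables. The tables come from cultured epidermal cells of newborn mice in which the gene of the histone H2A deubiquitinase Bap1 could be deleted. The group labelled Bap1 knockout was a pool of 9 C57BL/6 neonates at postnatal day 1 with the genotype Bap1fl/fl Rosa26-CreERT2. The group labelled Bap1 wild type was a pool of 11 such neonates with Rosa26-CreERT2 and no floxed Bap1 allele named. CreERT2 is a recombinase that acts only after 4-hydroxytamoxifen (4-OHT) is given, and the Rosa26 locus drives it in all cell types. Both cultures therefore carried it, and both received 100 nM 4-OHT for 4 days and were kept for another 3 days without it, in M254 medium with a growth supplement made for human melanocytes. Each pool gave 1 droplet library of the 10x Genomics 3′ kind, in which each captured RNA molecule is counted once by its unique molecular identifier (UMI). The question the design poses is how gene activity differs between epidermal cells with and without Bap1.

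Tight junctions seal the space between neighbouring epithelial cells. Claudins form the sealing strands and set which ions pass, occludin and the junctional adhesion molecules sit beside them in the membrane, and scaffold proteins such as ZO-1 tie the strands to the actin cytoskeleton. In the epidermis the functional barrier lies in the granular layer, and mice without Cldn1 lose water through the skin and die soon after birth. Epcam is an adhesion molecule of simple epithelia and of Langerhans cells that binds claudin-7 in the gut and protects it from degradation.

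Bases upstream of 4 members are shown because Cldn1 and Tjp1 had lower RNA in the library labelled knockout while Cldn4 and Epcam were nearly equal in both libraries. Each line gives the 250 bases before a RefSeq start in GRCm38.p6, written 5′ to 3′ on the strand of the gene. Capitals mark 6-base matches on either strand to the binding sequence of Grainyhead-like factors (ACCGGT), the E2-box bound by Snail and ZEB factors (CACCTG, or CAGGTG on the other strand) and the GC box (GGGCGG, or CCGCCC on the other strand). TATAAA was searched as well. The positions are chr16:26371840-26372089 (minus strand) for Cldn1, chr7:65371245-65371494 (minus strand) for Tjp1, chr5:134946935-134947184 (minus strand) for Cldn4 and chr17:87635729-87635978 (plus strand) for Epcam. The Tjp1 window lies inside the annotated gene, before the start of a shorter transcript.
Cldn1: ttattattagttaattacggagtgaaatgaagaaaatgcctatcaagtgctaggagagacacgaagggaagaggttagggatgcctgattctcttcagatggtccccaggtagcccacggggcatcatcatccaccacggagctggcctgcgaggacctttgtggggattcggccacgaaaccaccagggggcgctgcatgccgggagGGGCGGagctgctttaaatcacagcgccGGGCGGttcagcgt
Tjp1: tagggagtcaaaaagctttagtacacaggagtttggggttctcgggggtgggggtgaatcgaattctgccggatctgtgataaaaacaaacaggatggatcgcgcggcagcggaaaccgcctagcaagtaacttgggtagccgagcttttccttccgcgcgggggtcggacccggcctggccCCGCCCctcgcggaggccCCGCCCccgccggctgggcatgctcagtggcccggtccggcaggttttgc
Cldn4: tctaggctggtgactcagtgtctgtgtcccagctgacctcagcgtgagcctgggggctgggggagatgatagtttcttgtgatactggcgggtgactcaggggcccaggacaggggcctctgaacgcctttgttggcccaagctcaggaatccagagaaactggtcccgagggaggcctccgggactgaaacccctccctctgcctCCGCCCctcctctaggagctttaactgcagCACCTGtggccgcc
Epcam: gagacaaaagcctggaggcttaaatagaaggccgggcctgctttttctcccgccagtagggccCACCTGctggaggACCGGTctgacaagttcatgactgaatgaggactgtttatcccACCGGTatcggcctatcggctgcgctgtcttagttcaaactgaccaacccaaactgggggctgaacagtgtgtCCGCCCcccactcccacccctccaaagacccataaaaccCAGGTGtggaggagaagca
Cldn1 and Tjp1 each held 2 GC boxes and none of the other motifs. Cldn4 held 1 E2-box and 1 GC box, and Epcam held 2 copies of ACCGGT, 2 E2-boxes and 1 GC box. No window held TATAAA. Among members not printed, none held ACCGGT. Cldn3, which was nearly level between the libraries, held no E2-box either, while Cldn6 and F11r held 1 each. Cldn7 and Ocln have 2 windows each, of which 1 held 2 E2-boxes and the other 0. Over 32851 RefSeq windows of the same length, ACCGGT occurred in 1.86%, the E2-box in 17.2%, the GC box in 32.7% and TATAAA in 12.4%. A match is a run of letters and not a shown binding site.

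The library labelled knockout held 1760 cells and 64954113 UMIs, with a median of 33585 UMIs per cell. The library labelled wild type held 1926 cells and 77579465 UMIs, with a median of 37223. After filtering, 1738 cells labelled knockout and 1912 labelled wild type were left, and 3 cell barcodes occurred in both libraries. Joint clustering, with the 9 members and the related lists kept out of the variable genes, gave 11 clusters. Of these, 7 were keratin-rich and held 1595 cells (91.8%) labelled knockout and 1750 (91.5%) labelled wild type. Levels are given as CPM, the UMIs of a gene per 1000000 UMIs of the same cells. Defining genes of epidermal cells were present: the basal keratin Krt14 had 4600.3 CPM in keratin-rich cells labelled knockout and 5736 CPM in those labelled wild type, and E-cadherin (Cdh1) had 339 CPM labelled knockout and 336 CPM labelled wild type. Bap1 RNA went against the label, at 19.6 CPM in keratin-rich cells labelled knockout and 14.0 in those labelled wild type (log2 ratio 0.48, 0.36 to 0.61). Tags at the 3′ end check nothing where the deleted part lies elsewhere, so every direction given here rests on the labels. With 1 library per group no difference could be tested, and it cannot be told apart from other differences between the pools, cultures or libraries. Intervals are 95%, exact, and cover counting error only, with each UMI taken as an independent molecule.

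In keratin-rich cells the members lay on very different levels. These counts come from 3′ tags, 1 per molecule, so CPM compares molecules between genes without a correction for length, but not how well each 3′ end was captured. Cldn4 was the most abundant claudin, with 2563 CPM labelled knockout and 2475 labelled wild type. Epcam followed with 2099 labelled knockout and 2169 labelled wild type, then Cldn3 with 1295 labelled knockout and 1450.0 labelled wild type and Cldn7 with 723 labelled knockout and 844 labelled wild type. F11r, which encodes the junctional adhesion molecule JAM-A, had 353 labelled knockout and 323 labelled wild type. Below it the order of Cldn6 and Cldn1 differed between the libraries: Cldn6, at 240.0, stood above Cldn1, at 126, in the library labelled knockout, whereas in the library labelled wild type Cldn6 had 189 and Cldn1 256. Tjp1, the gene of the scaffold ZO-1, and Ocln, the gene of occludin, were the scarcest members, with 48.9 and 32.0 labelled knockout and 78.3 and 38.3 labelled wild type. No neighbours in either order had overlapping counting intervals.

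Of the 9 members, 2 were at least 1.5-fold lower in keratin-rich cells labelled knockout than in those labelled wild type, Cldn1 and Tjp1, and 0 were 1.5-fold higher. Over the 13552 genes with at least 100 UMIs, 13.9% were 1.5-fold lower and 5.37% were 1.5-fold higher, so 2 of 9 lower members is no share particular to the group. At a limit of 2-fold, Cldn1 alone was lower, against 6.64% of all genes, and 0 members were higher, against 1.9%. Cldn1 was short of 2-fold with equal weight for each cluster (−0.83), without cluster 3 (−0.76) and in the clusters with at least 50 cells in each library (−0.80). In either direction 19.2% of all genes were past 1.5-fold and 8.54% past 2-fold. The median log2 ratio of the 9 members was −0.16, and that of all genes was 0.00095, with the middle 50% of genes between −0.29 and 0.20.

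**Figure D1:**
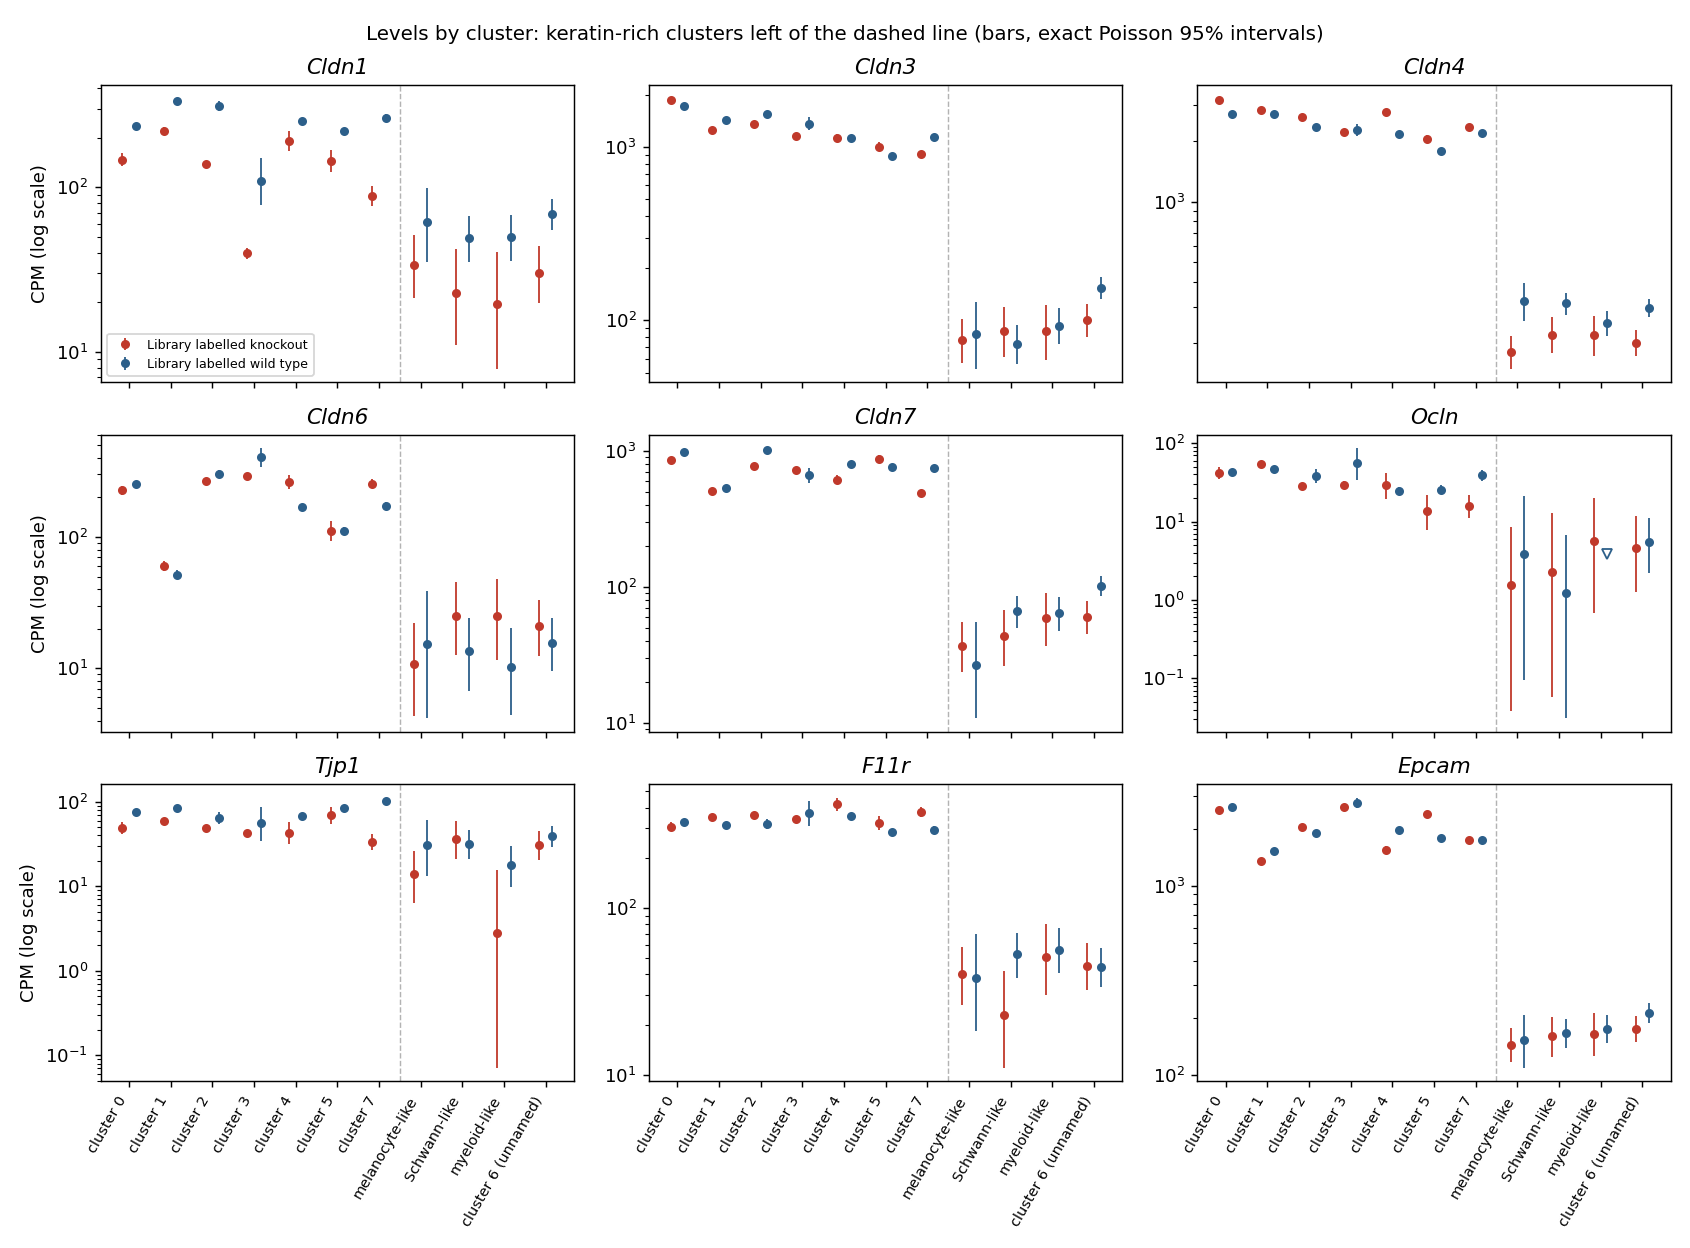
CPM on a log scale for each of the 9 members (panels) in the 7 keratin-rich clusters and, right of the dashed line, in the 4 other clusters, with exact Poisson 95% intervals; points labelled knockout stand left of those labelled wild type, and an open triangle marks 3 UMIs where 0 were counted. Cldn1 lay lower in cells labelled knockout than in those labelled wild type in each keratin-rich cluster, Cldn6 dipped in cluster 1, and in the other clusters the members were low, Tjp1 least so except in myeloid-like cells labelled knockout.

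Among the claudins that seal the epidermal barrier, Cldn1 differed most between the libraries. The gene (identifier 12737, chr16:26356645-26371839 in GRCm38) had 7812 UMIs in keratin-rich cells labelled knockout, 126 CPM, and 18981 in those labelled wild type, 256 CPM. The log2 ratio was −1.03 (−1.06 to −0.99), a 2.04-fold lower level. The difference was present in the typical cell: the median cell labelled knockout had 56.6 CPM and the median cell labelled wild type 183. After thinning every cell to 2000 UMIs, which left out no cell, Cldn1 was detected in 16.2% of keratin-rich cells labelled knockout (14.5 to 18.1%) and 33.8% of those labelled wild type (31.6 to 36.0%). Unthinned cells, with median depths of 35703 UMIs labelled knockout and 39773 labelled wild type, gave 80.4% labelled knockout and 95.7% labelled wild type. In melanocyte-like cells, which should lack epithelial claudins, thinned cells labelled knockout had a share of 10.7% (4.03 to 21.9%) and those labelled wild type 9.09% (1.12 to 29.2%), at median depths of 10126 UMIs labelled knockout and 10993 labelled wild type before thinning. The keratin-rich share labelled knockout thus lay inside the melanocyte-like interval of that library, which is wide because it came from 56 cells. The share labelled wild type lay above the interval of its own library. By CPM, melanocyte-like cells had 27.0% (16.9 to 40.8%) of the keratin-rich Cldn1 level labelled knockout and 23.9% (13.7 to 38.8%) labelled wild type. By that measure the keratin-rich level was the higher one in both libraries.

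All 7 keratin-rich clusters had less Cldn1 in the library labelled knockout. Different clusters held most cells of the libraries: cluster 2, with Nts, Acta2 and Krt18 among its leading genes, had 739 cells labelled knockout and 57 labelled wild type, and cluster 0, with Ccl20 and Cxcl5 among its leading genes, had 72 labelled knockout and 779 labelled wild type. In clusters 0, 1, 2 and 7, which had at least 50 cells in each library, the log2 ratio of Cldn1 was −0.68 (−0.82 to −0.55), −0.60 (−0.68 to −0.52), −1.17 (−1.28 to −1.06) and −1.57 (−1.79 to −1.36). Cldn1 was thus past 1.5-fold in all 4, as were 4.33% of all genes in the lower direction. No member was 1.5-fold higher in all 4, as 1.01% of all genes were. Clusters 3, 4 and 5 had only 13 to 19 cells in one of the libraries, and there the log2 ratio was −1.47, −0.41 and −0.61. In cluster 4, which had the smooth muscle gene Cnn1 among its leading genes, it stayed short of 1.5-fold.

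Among the keratin-rich clusters of each library Cldn1 was highest in cluster 1 and lowest in cluster 3. Cluster 1 was cornifying-keratinocyte-like, with 6 markers of that set such as Sprr1a and Sprr2d, which encode proteins of the cornified envelope, and had 221 CPM labelled knockout and 335 labelled wild type. Cluster 3, with the stress-induced genes Nupr1 and Gdf15 among its leading genes, had 39.6 from 436 cells labelled knockout and 109 from 13 cells labelled wild type. Cells of cluster 3 labelled knockout carried 1.31 Cldn1 UMIs each, at a median depth of 31132 UMIs. In the same library the melanocyte-like, Schwann-like and myeloid-like cells and cluster 6 had 19.6 to 33.9 CPM, 0.278 to 0.839 per cell, at median depths of 10126 to 19269. How much of the Cldn1 of cluster 3 was free RNA was not tested.

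Cldn3 and Cldn4, barrier claudins that also serve as receptors of a Clostridium perfringens enterotoxin, differed little between the libraries. Cldn3 (identifier 12739, chr5:134986214-134987476) had a log2 ratio of −0.16 (−0.18 to −0.15), and Cldn4 (identifier 12740, chr5:134945123-134946934) one of 0.05 (0.04 to 0.06). Both lie close together on chromosome 5, and both were highest in cluster 0. There Cldn3 had 1856 CPM labelled knockout and 1726 labelled wild type, and Cldn4 had 3178 labelled knockout and 2719 labelled wild type. Cldn4 was slightly higher in cells labelled knockout in 6 of 7 clusters, up to 0.37 in cluster 4, and −0.03 (−0.13 to 0.07) in cluster 3. Cldn3 was lower in 5 of 7, between −0.32 in cluster 7 and 0.17 in cluster 5, the cycling cells. Cldn3 overlaps by 44 bases with the long noncoding RNA Wbscr25, so reads there could have been split or dropped.

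Cldn7 (identifier 53624, chr11:69964779-69967886), the partner of Epcam in the gut, had a log2 ratio of −0.22 (−0.24 to −0.21) in keratin-rich cells. It had 493 CPM labelled knockout and 757 labelled wild type in cluster 7, which had Plau and Notch2 among its leading genes, a log2 ratio of −0.62 (−0.72 to −0.53). This was the 1 cluster of 7 in which it passed 1.5-fold. In the cornifying-keratinocyte-like cluster 1 its level was low in both libraries, with 506 labelled knockout and 534 labelled wild type, and there the libraries were close (log2 ratio −0.08, −0.13 to −0.02).

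Cldn6 (identifier 54419, chr17:23679348-23682446), a claudin best known from embryonic epithelia, was the member with the largest share of its UMIs in the 10% of cells richest in it. It had 14928 UMIs in keratin-rich cells labelled knockout and 14022 in those labelled wild type, a log2 ratio of 0.35 (0.31 to 0.38). That ratio depended on the clusters: it was 0.57 (0.41 to 0.72) in cluster 7 and 0.63 (0.44 to 0.81) in cluster 4, but −0.17 (−0.28 to −0.06) in cluster 2 and −0.48 (−0.72 to −0.23) in cluster 3. With equal weight for each cluster the log2 ratio was 0.011, and without cluster 0 it was 0.87, past 1.5-fold.

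The counts of Cldn6 spread more widely between keratin-rich cells than counting alone gives. After thinning to 8000 UMIs, 52.9% of keratin-rich cells labelled knockout and 53.8% of those labelled wild type had no Cldn6 UMI. A Poisson spread around the same mean would leave 16.1% labelled knockout and 23.5% labelled wild type. The 10% of cells with most Cldn6 held 55.8% of its UMIs in the library labelled knockout and 53.6% in the library labelled wild type. In cluster 2 among cells labelled knockout, 51.0% of the 739 cells had no UMI against a Poisson share of 12.9%, and in cluster 0 among cells labelled wild type 45.4% of 779 cells against 14.6%. The excess spread was thus present within single clusters of both libraries. Unthinned, the median cell had Cldn6 UMIs in both libraries, at 60.8 CPM labelled knockout and 49.3 labelled wild type, so 0 UMIs after thinning does not mark a cell as lacking Cldn6. In melanocyte-like cells thinned alike, 8.93% labelled knockout (2.96 to 19.6%) and 9.09% labelled wild type (1.12 to 29.2%) had a Cldn6 UMI, against 47.1% and 46.2% of keratin-rich cells with the same labels. Zeros beyond the Poisson share were also seen for Cldn3, with 5.41% in cluster 2 labelled knockout against 0.0033%. Over keratin-rich cells the same held for Cldn1, with 55.4% against 37.3% labelled knockout and 26.1% against 12.0% labelled wild type. Cldn7 had 5.64% against 0.418% labelled knockout and 3.31% against 0.161% labelled wild type. Cldn9, which lies 137 bases from Cldn6, had 17 UMIs labelled knockout and 26 labelled wild type.

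**Figure D2:**
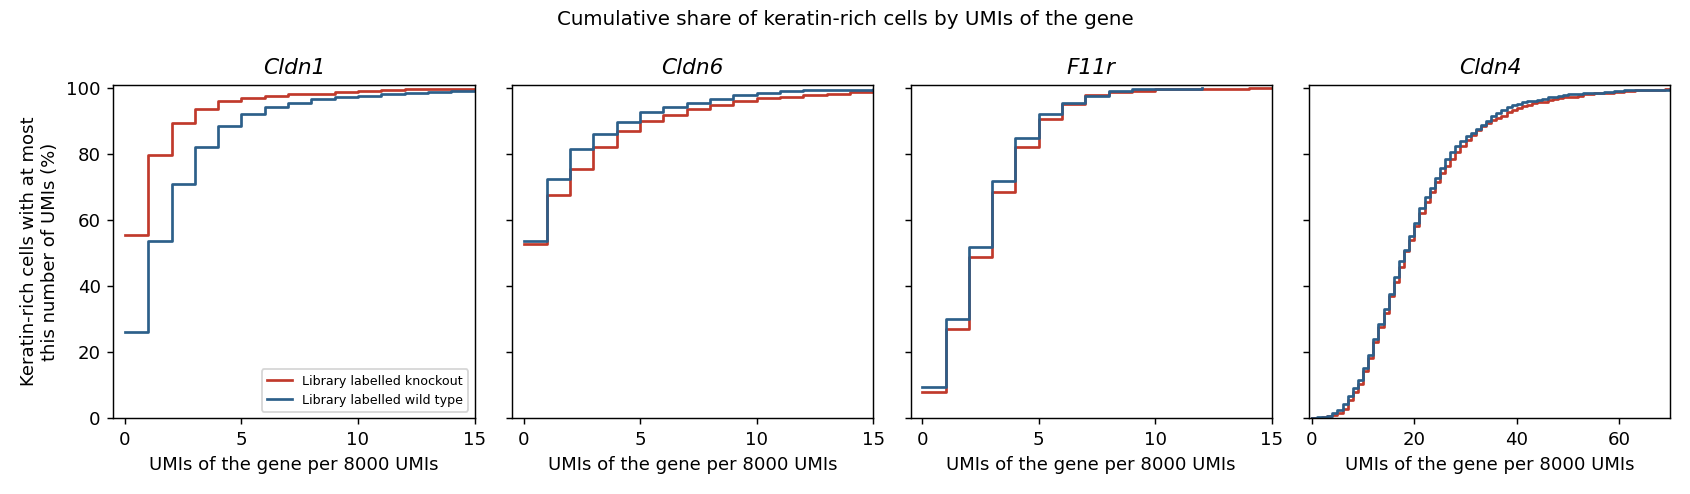
Share of keratin-rich cells (vertical axis, percent) with at most the number of UMIs on the horizontal axis, after thinning each cell to 8000 UMIs, for Cldn1, Cldn6, F11r and Cldn4 in the libraries labelled knockout (red) and wild type (blue). The Cldn6 curves start at 52.9% labelled knockout and 53.8% labelled wild type of cells at 0 UMIs and flatten slowly, the Cldn1 curves start at 55.4% labelled knockout and 26.1% labelled wild type, and the F11r curves lie close together.

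The clusters at the ends of the Cldn1 order were turned round for Cldn6. Among keratin-rich clusters Cldn6 was lowest in the cornifying-keratinocyte-like cluster 1, with 60.2 CPM labelled knockout and 51.8 labelled wild type. It was highest in the stress-marked cluster 3, with 290.2 labelled knockout and 404 labelled wild type. Cluster 3 had only 13 cells labelled wild type. In the library labelled knockout, clusters 2, 4 and 7 came near it, with 269, 264 and 255 CPM of Cldn6. Epcam (identifier 17075, chr17:87635979-87651127) had the same lowest and highest clusters, with 1356 CPM labelled knockout and 1525 labelled wild type in cluster 1 and 2599 labelled knockout and 2746 labelled wild type in cluster 3. Cluster 0 came near cluster 3 for Epcam, with 2524 labelled knockout and 2605 labelled wild type. Between the libraries Epcam was nearly level in keratin-rich cells (log2 ratio −0.05, −0.06 to −0.04). By cluster it ranged between −0.35 in cluster 4 and 0.42 in cluster 5, each with only 19 cells labelled knockout. In clusters 0, 1, 2 and 7 it lay between −0.17 and 0.12.

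Among the membrane partners, Ocln (identifier 18260, chr13:100496504-100552718) had 1988 UMIs labelled knockout and 2846 labelled wild type in keratin-rich cells, a log2 ratio of −0.26 (−0.35 to −0.18). The sign differed between clusters. In cluster 7 Ocln had 15.8 CPM labelled knockout and 38.8 labelled wild type (log2 ratio −1.29, −1.84 to −0.78), while in cluster 1 it had 53.5 labelled knockout and 46.2 labelled wild type (0.21, 0.03 to 0.39). With cells thinned to 2000 UMIs, which leaves fewer Ocln UMIs to count, the log2 ratio over keratin-rich cells was −0.60, past 1.5-fold. The mean over cells of equal weight was 32.4 CPM labelled knockout and 41.7 labelled wild type, short of 1.5-fold. Thinning to 8000 UMIs gave means of 0.270 and 0.340 UMIs per cell, likewise short of it. Why the value at 2000 UMIs was lower was not tested. A small nucleolar RNA gene of 144 bases lies within Ocln.

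F11r (identifier 16456, chr1:171437561-171464593) was the most even member across clusters. Its highest cluster exceeded its lowest 1.36-fold in the library labelled knockout and 1.30-fold in the library labelled wild type. The log2 ratio between the libraries was 0.13 (0.10 to 0.16), and 5 of 7 clusters had more F11r in cells labelled knockout, up to 0.36 (0.23 to 0.48) in cluster 7. From cell to cell it varied little more than counting alone gives, with a variance over mean of 1.36 in thinned cells labelled knockout and 1.34 in those labelled wild type, against 5.71 labelled knockout and 4.76 labelled wild type for Cldn6. Cldn6 was not the highest by this measure: Cldn4 had 6.26 labelled knockout and 6.32 labelled wild type, and Epcam 6.15 and 8.61. Nor was F11r the lowest: the scarcer Tjp1 had 1.03 labelled knockout and 1.18 labelled wild type, and Ocln 1.25 and 1.17.

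The scaffold gene Tjp1 (identifier 21872, chr7:65296165-65527850) was lower in cells labelled knockout than in those labelled wild type in all 7 keratin-rich clusters. It had 3044 UMIs and 48.9 CPM in keratin-rich cells labelled knockout, against 5817 and 78.3 in those labelled wild type, a log2 ratio of −0.68 (−0.74 to −0.62). Thinned cells held a Tjp1 UMI in 9.09% labelled knockout (7.73 to 10.6%) and 14.6% labelled wild type (13 to 16.3%). Without thinning the shares were 72.7% labelled knockout and 87.0% labelled wild type. Tjp1 is not restricted to epithelia, and its level in the other cell classes is given with them. By cluster the log2 ratio ran between −1.60 (−1.96 to −1.26) in cluster 7 and −0.28 (−0.63 to 0.05) in cluster 5. It was past 1.5-fold in clusters 0, 4 and 7, and the intervals of clusters 3 and 5 included 0. Cluster 7 was the shallowest keratin-rich cluster in both libraries, with median depths of 21338 UMIs labelled knockout and 18907 labelled wild type, and its ratios of Cldn1, Cldn7, Ocln and Tjp1 were the lowest each of these genes had in clusters 0, 1, 2 and 7. Whether depth or RNA quality played a part in cluster 7 was not tested.

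**Figure D3:**
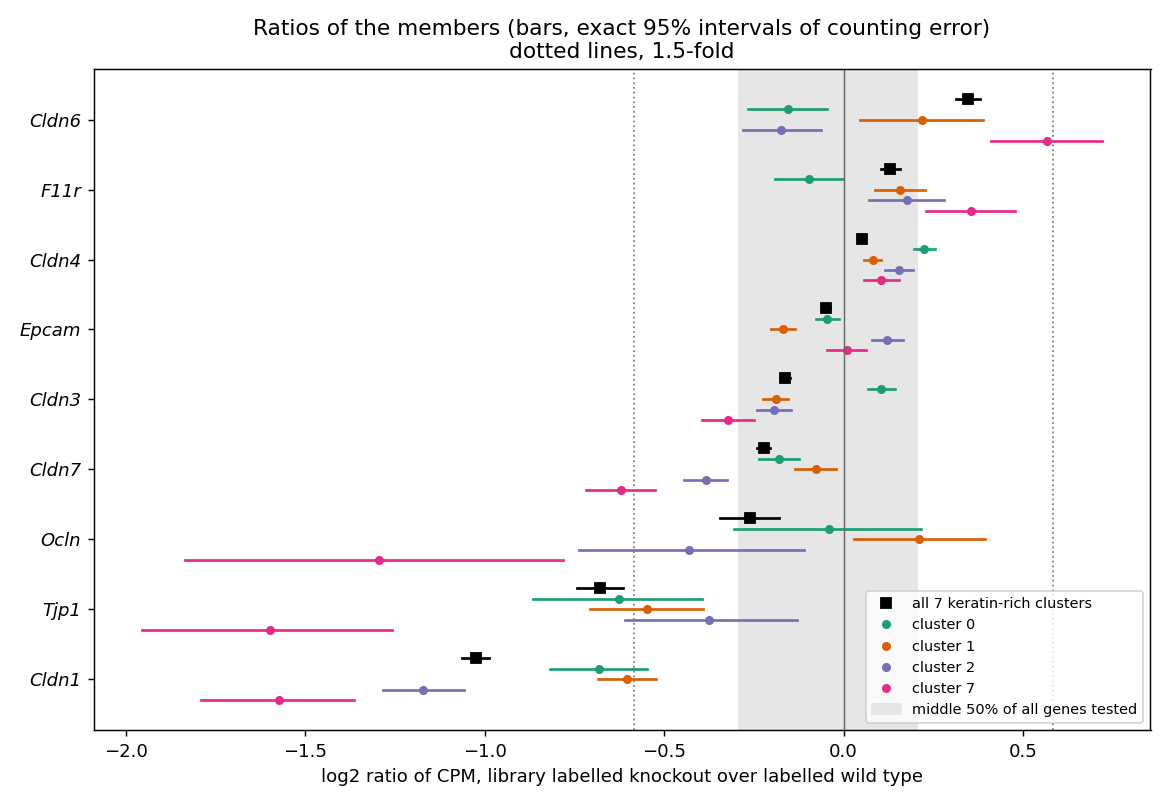
Log2 ratio of CPM, library labelled knockout over labelled wild type, for the 9 members in all keratin-rich clusters together (black squares) and in clusters 0, 1, 2 and 7 (coloured circles), with exact 95% intervals of counting error, the middle 50% of all genes in grey and 1.5-fold as dotted lines. Cldn1 lies left of the dotted line in all 4 clusters, and Ocln spreads between −1.29 in cluster 7 and 0.21 in cluster 1.

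Outside the keratin-rich clusters the members were low, and Tjp1 was the least reduced in all but the myeloid-like cells labelled knockout. The melanocyte-like, Schwann-like and myeloid-like cells and the unnamed cluster 6, which had the fibroblast genes Twist2 and Prrx1 among its leading genes, numbered 56, 36, 20 and 31 cells labelled knockout and 22, 59, 36 and 45 labelled wild type. Relative to keratin-rich cells of the same library, the median member stood at 6.89% to 8.68% in these classes labelled knockout and at 7.84% to 12.1% in those labelled wild type. Epcam had 145 to 176 CPM in the 4 classes labelled knockout and 153 to 213 in those labelled wild type. Keratins, which these cells should lack, were there at a like share: Krt14 had 289 to 327 CPM in the named classes labelled knockout and 366 to 485 in those labelled wild type. Levels of this size were read as background. Cluster 6 was less clean, with Krt14 at 1272 labelled knockout and 1508 labelled wild type.

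Tjp1 stood at 74.9% of its keratin-rich level in Schwann-like cells labelled knockout (42.8 to 122%) and 40.6% in those labelled wild type (26.5 to 59.5%). In cluster 6 the share was 63.9% labelled knockout and 49.8% labelled wild type. These shares are set against unlike keratin-rich levels, 48.9 CPM labelled knockout and 78.3 labelled wild type. Schwann-like cells had 36.6 CPM labelled knockout and 31.8 labelled wild type, from 16 and 26 UMIs. For cluster 6 the levels were 31.3 and 39.0 CPM, from 27 and 50 UMIs. The interval of the log2 ratio between the libraries included 0 in both classes. ZO-1 also serves adherens and gap junctions, which cells without tight junctions form. Myeloid-like cells had Tjp1 at 5.73% from 1 UMI labelled knockout and 22.9% from 14 UMIs labelled wild type. Cd207, the defining gene of Langerhans cells, the Epcam-bearing immune cells of epidermis, had 0 UMIs in both libraries. Cldn1 stood at 15.6% to 27.0% of its keratin-rich level in the 4 classes labelled knockout and 19.2% to 26.9% in those labelled wild type, above the share of Epcam in every one of them, from 7 to 88 UMIs.

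Pairs of abundant claudins varied together from cell to cell to different degrees. In keratin-rich cells thinned to 8000 UMIs, the Spearman coefficient of Cldn3 with Cldn4 was 0.41 over 1595 cells labelled knockout and 0.51 over 1750 labelled wild type. For Cldn3 with Cldn7 it was 0.43 labelled knockout and 0.45 labelled wild type, and in clusters 0, 1, 2 and 7 it lay between 0.22 and 0.61. For Cldn4 with Cldn7 it was 0.17 labelled knockout and 0.26 labelled wild type, and between 0.058 and 0.38 in those clusters. Cldn7 and Epcam, partners as proteins, had 0.22 labelled knockout and 0.37 labelled wild type. Cldn6 and Cldn1 showed no such relation: of thinned cells with a Cldn6 UMI, 44.1% labelled knockout and 72.9% labelled wild type also had Cldn1, close to the 44.6% labelled knockout and 73.9% labelled wild type of all keratin-rich cells. These coefficients describe cells that share a library and an equal depth, and are no test.

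The genes whose levels ran most like each member were named by Pearson's r of log2(CPM + 1) over 19 sums of a cluster and a library with at least 20 cells. Of these sums, 8 were not keratin-rich, so the step between keratin-rich and other cells enters every coefficient. Cldn1 ran close to Rhou and Elovl7, the gene of a fatty acid elongase (r = 0.94 each). Cldn3, Cldn4, Cldn7 and F11r each had another member first, with r between 0.98 and 0.99, and Epcam ran close to Cldn3 and Cldn7. Over the 11 keratin-rich sums alone none of these had a member among its 3 nearest genes, and the first were Uap1l1 for Cldn3, Aptx for Cldn4, Txlnb for Cldn7, Atf5 for F11r and Mrpl1 for Epcam (r between 0.91 and 0.96). Cldn6 had Igfals (0.97), Krtcap3 and Cntn2, Ocln had the polarity gene Dlg1 (0.97), Stard10 and the desmoglein gene Dsg2, and Tjp1 had Aven (0.97), Dock9 and Rnf44. Of the genes named for Cldn1, Cldn6, Ocln and Tjp1, only Krtcap3 for Cldn6 was again among the 3 nearest over the keratin-rich sums.

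Of the 12 Epcam partners and proteases with at least 100 UMIs, 1 was past 1.5-fold, lower in cells labelled knockout, beside 13.9% of all genes lower, and the median log2 ratio was −0.07.

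Of 19 other claudin genes matched, 4 had at least 100 UMIs, and 2 of these were past 1.5-fold, both lower, beside 13.9% of all genes lower, with a median log2 ratio of −0.35 over the 4. Cldn11, a claudin of myelin and of the inner ear, had 22.0 CPM labelled knockout and 33.8 labelled wild type (log2 ratio −0.62, −0.72 to −0.52). Cluster 1 held 92.4% labelled knockout and 92.3% labelled wild type of these UMIs, at 151 CPM labelled knockout and 194 labelled wild type, and inside it the log2 ratio was −0.37, short of 1.5-fold. Cldn23 had 28.7 CPM labelled knockout and 49.5 labelled wild type (log2 ratio −0.79, −0.87 to −0.70). In cluster 0 its log2 ratio was −0.19 (−0.49 to 0.10), and in clusters 1, 2 and 7 it was −0.65, −1.20 and −1.55. Cldn23 was likewise highest in cluster 1, with 95 CPM labelled knockout and 149 labelled wild type. Among keratin-rich clusters, Cldn1, Cldn11 and Cldn23 were thus at their highest and Cldn6 at its lowest in this one. Cldn12 was nearly level (log2 ratio 0.10, −0.01 to 0.21), and Cldn5, the claudin of blood vessels, had 12 UMIs labelled knockout and 16 labelled wild type.

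Among 24 plaque and polarity genes with at least 100 UMIs, 3 were past 1.5-fold, all lower, beside 13.9% of all genes lower, and the median log2 ratio was −0.22. Afdn, which encodes the actin-binding scaffold afadin, had 112 CPM labelled knockout and 184 labelled wild type (log2 ratio −0.72, −0.76 to −0.67) and was lower in 7 of 7 clusters, past 1.5-fold in cluster 7 (−1.33) and between −0.57 and −0.23 in the other 6. Tjp3, the gene of ZO-3, had 5.27 labelled knockout and 10.2 labelled wild type (−0.95, −1.14 to −0.76), and the scaffold gene Magi1 4.50 labelled knockout and 6.96 labelled wild type (−0.63, −0.84 to −0.42). In clusters 0 and 2 Magi1 was short of 1.5-fold, at −0.52 (−1.42 to 0.26) and −0.17 (−0.96 to 0.73). In clusters 1 and 7 it was past it, at −1.20 (−2.05 to −0.42) and −0.82 (−1.61 to −0.09). Tjp3 and Afdn each overlap another protein-coding gene, Apba3 and Tcte2, and Magi1 overlaps noncoding genes, so their counts are uncertain where reads were shared.

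The 6 membrane partners measured included 1 past 1.5-fold, Jam2, with 4.36 CPM labelled knockout and 1.94 labelled wild type (log2 ratio 1.17, 0.87 to 1.47), beside 5.37% of all genes higher. In clusters 0 and 1 its log2 ratio was 1.59 and 1.25, and in the other 5 clusters at least 1 library held only 0 to 8 of its UMIs. Jam2 encodes JAM-B, a relative of the F11r protein, and overlaps the gene model Gm46557 over 5512 bases. Marveld2, the gene of tricellulin, which seals corners where cells meet, had a log2 ratio of 0.12 (0.02 to 0.22), and the median of the 6 was 0.11. By cluster the ratio of Marveld2 ran between −1.17 (−1.79 to −0.59) in cluster 7 and 0.75 (0.20 to 1.26) in cluster 4.

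Of 17 regulators of epithelial identity with at least 100 UMIs, the levels of 8 labelled knockout were at least 1.5-fold below those labelled wild type, and that of 1 was as far above. The median log2 ratio was −0.58, and 13.9% of all genes were 1.5-fold lower. Among the Grainyhead-like factors, which drive epidermal barrier genes, Grhl3 had 13.9 CPM labelled knockout and 28.7 labelled wild type (log2 ratio −1.05, −1.16 to −0.93). Inside clusters 0 and 1 it was short of 1.5-fold, at −0.18 and −0.43, and in clusters 2 and 7 past it, at −0.69 and −1.08. Grhl1 had 4.15 labelled knockout and 7.96 labelled wild type (−0.94, −1.16 to −0.73). Its ratio was −0.49 in clusters 0 and 1 and 0.08 in cluster 2, from 3 UMIs labelled wild type. In cluster 7 it was −2.02, from 2 UMIs labelled knockout. Over all keratin-rich cells Grhl2 was nearly level (0.03, −0.09 to 0.15). Trp63, the gene of the epidermal master factor p63, had 12.9 labelled knockout and 26.0 labelled wild type (−1.02, −1.14 to −0.90), and in clusters 0, 1, 2 and 7 the ratio was −0.93, −1.19, −0.72 and 0.21. Snai1, a repressor of claudin and E-cadherin genes, was the higher one, with 105 UMIs labelled knockout and 47 labelled wild type. It had 1.69 CPM labelled knockout and 0.633 labelled wild type (1.42, 0.91 to 1.94). Clusters 2 and 3 held 45.7% and 34.3% of the Snai1 UMIs labelled knockout, and 1 UMI each labelled wild type. The more abundant Snai2 went the other way, with 37.5 CPM labelled knockout and 56.1 labelled wild type (−0.58, −0.65 to −0.51). Grhl2 and Grhl3 overlap noncoding gene models. E-cadherin itself was nearly level over all keratin-rich cells (Cdh1, 0.01, −0.01 to 0.04), but −0.73 in cluster 7, −0.61 in cluster 4 and 0.40 in cluster 3.

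**Figure D4:**
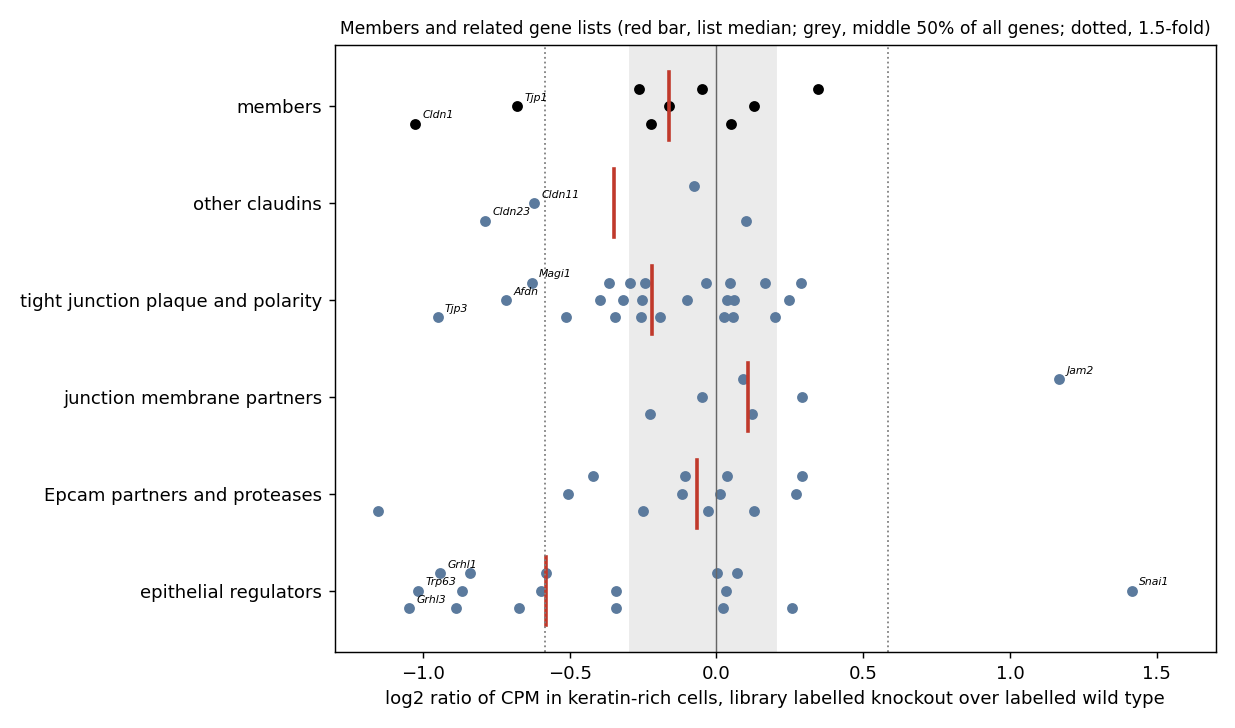
Log2 ratio of CPM in keratin-rich cells, library labelled knockout over labelled wild type, for the 9 members and for the genes of 5 related lists with at least 100 UMIs; each point is a gene, those past 1.5-fold that the text describes are named, red bars are list medians, grey is the middle 50% of all genes and dotted lines mark 1.5-fold. The regulators have the lowest median, −0.58, and the members' median is −0.16.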

How the data were processed

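Each library was made with the Chromium 3′ v2 chemistry, per the labels' protocols, and the deposited tables hold whole-number counts of UMIs per NCBI gene identifier and cell, made by the authors. The submitters' processing notes name mm10, Cell Ranger 2.1 and Seurat 2.0; the handling of introns, strand, reads shared by overlapping genes and doublets is not given in the sources used here. Of 36528 identifiers, 31049 matched a symbol in the RefSeq gene table of GRCm38.p6.

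Cells with under 500 genes or over 10% mitochondrial UMIs were removed (16 labelled knockout, 13 labelled wild type), as were cells called doublets by Scrublet at an expected rate of 0.02 (7 and 1). Both libraries were clustered together in scanpy 1.11.5 (Python 3.11.15, igraph 0.11.9) on counts scaled to 10000 per cell and log-transformed, using the 2000 most variable genes, 30 components, 15 neighbours and a Leiden resolution of 0.5. The members and related lists were kept out of the variable genes. The melanocyte-like, Schwann-like and myeloid-like names each came from at least 3 markers at 5-fold. Clusters led by an epithelial or cell-state set, and those with under 3 markers of any set, were called keratin-rich. No minimum keratin level was required. Clusters 0, 2 and 7 had 0 such markers and cluster 4 had 1.

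UMIs were summed per library and cluster or class and given as CPM, per 1000000 UMIs of the same cells. With 1 library per group there was no test. Counts have exact Poisson intervals, shares Clopper-Pearson intervals and ratios conditional exact intervals (SciPy 1.17.1), at 95%. A gene with at least 100 UMIs in keratin-rich cells was called higher or lower past 1.5-fold. The interval code was tested on simulated Poisson counts, which hold no extra spread between cells, so it was not checked against such spread. Shares were compared after thinning each cell to 2000 UMIs, and spread between cells after thinning to 8000 UMIs. Where a sum was 0 the floor is 3 UMIs.

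The members and the related lists were chosen with earlier results of these data known. All members are described, and the text names, of each related list, up to 4 genes past 1.5-fold with the largest log2 ratios, plus Marveld2, Grhl2, Grhl3, Cldn5 and Cldn12; some genes that these rules or the likeness rule would name are not reported here. Cldn9, Cdh1 and Snai2 were named after their values were seen. The alternatives tried were other weights, UMI minimums, thinning depths, clusterings, fold limits and leaving out each cluster.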

Additional observations from a re-analysis of the deposited data

Results flagged for a closer look

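Of the members, 5 had counting intervals on opposite sides of 0 in clusters that held at least 50 cells of each library (Cldn3, Cldn6, Ocln, F11r and Epcam), and for 2 of them the clusters were at least 1.5-fold apart. For Cldn6 the log2 ratio of the library labelled knockout over the library labelled wild type was higher in cluster 7 than in cluster 2 by 0.74. For Ocln it was higher in cluster 1 than in cluster 7 by 1.5. With 1 library per group neither difference was tested.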

How the results depend on the processing

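Each ratio was recomputed under 21 alternatives, of which only the restriction to clusters with at least 50 cells in each library was chosen after seeing the data. The log2 ratio of Cldn1 ran between −1.22 (thinned to 2000 UMIs) and −0.76 (without cluster 3), and that of Tjp1 between −0.74 and −0.63, so both were past 1.5-fold lower in all 21. Without cluster 0 the number of members past 1.5-fold higher was 1 (Cldn6, 0.87), and Cldn3 (0.08) and Epcam (0.23) were on the higher side. At a fold limit of 2 the number past the limit lower was 1. Cldn4 ran between 0.003 and 0.17, Cldn7 between −0.33 and −0.008, F11r between 0.097 and 0.16 and Ocln between −0.60 and −0.10. The difference between libraries in the share of cells with an F11r UMI was −0.227 percentage points without thinning and 4.86 after thinning to 2000 UMIs, at raw shares near 100%. A minimum of 10065 UMIs per cell in both libraries removed 21 keratin-rich cells labelled knockout and 0 labelled wild type. No paired analysis was possible because each group was 1 library and the labels give no shared replicate numbers. Melanocyte-like, Schwann-like and myeloid-like sums of 20 to 59 cells limit the levels given there. The cause of these shifts was not tested.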
